A study of Danio rerio with 24 samples.

Results

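The genes described here are those of mitosis and of the kinetochore, the protein assembly that ties each chromosome to the spindle. They were taken from the gene symbols by name: the centromere protein (cenp), Aurora and polo kinase, A- and B-type cyclin, condensin (ncap), ska and spc2 families, a set of mitotic kinesins, and single genes such as cdk1, mki67 and top2a. Of the 14781 genes in the files, 49 matched, and 2 further symbols of the set, incenp and tpx2, did not match any row. By role they fall into 11 cyclins and mitotic kinases, 1 gene placed under the chromosome passenger complex (birc5a) and 4 genes around the spindle checkpoint. The others are 16 kinetochore and centromere genes, 8 genes of chromosome condensation and topology, and 9 of the spindle and cytokinesis. aurkb, which also belongs to the passenger complex, is counted among the kinases. The name match also brought in aurkaip1, whose human product is a mitochondrial ribosomal protein named for its binding to Aurora A kinase.

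The study took brain and kidney marrow from adult zebrafish, all male, of the strain EK and 4 to 12 months old, after an injury aimed at the heart, and asked how distant organs respond. The 14 RNA-seq libraries used here form 6 groups, and 10 ATAC-seq libraries were not analysed here. In the ablation experiment, marrow and brain were each sampled from fish with cardiomyocyte ablation (2 libraries per tissue) and from uninjured fish (2 libraries per tissue), all wild type. In the cebpd experiment, 3 libraries came from brains of homozygous cebpd knockout fish and 3 from wild type fish, and both genotypes had the ablation. Ablation used 17 h in 0.5 to 0.7 µM tamoxifen, and tissue was taken 7 days later. The labels do not state which driver makes the cardiomyocytes sensitive, whether uninjured fish went through tamoxifen, or whether replicates were separate fish, so p-values measure only the spread between libraries, which may be technical.

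Mitosis is driven by the kinase Cdk1 with its A- and B-type cyclins, and polo and Aurora kinases act alongside it. Condensins and topoisomerase II compact the chromosomes, kinetochores hold them on the microtubules, and a checkpoint delays their separation, through Cdc20, until all are attached. Most of these genes are transcribed together late in the cell cycle, so their RNA is widely read as a mark of dividing cells. In adult zebrafish the kidney marrow is the site of blood formation, and the brain keeps dividing radial glia along its ventricles. Roles given below for single genes are those known for their human counterparts.

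The ablation libraries held 14364306 to 20469655 gene reads and the cebpd libraries 4377028 to 6280007. The 49 genes took 15220 to 37526 of these reads in a marrow library, 2895 to 3933 in a brain library of the ablation experiment and 968 to 1537 in a cebpd library, so counting error is larger in brain. Levels are counts scaled to library size (CPM), computed within each comparison, and are compared within a gene. Marker genes matched the labelled tissues. In uninjured marrow and uninjured brain, all 9 neutrophil markers tested were higher in marrow and all 11 neuron markers lower. The marrow libraries also carried kidney tubule RNA: 12 nephron markers summed to 10552 and 11425 CPM in uninjured marrow, against 169.6 and 172 CPM in uninjured brain. In bulk tissue, fewer cells of a type and less RNA per cell cannot be told apart.

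Uninjured marrow and uninjured brain were compared first, since this sets the level from which any response to injury starts. Of the 49 genes, 45 were higher in marrow by edgeR's quasi-likelihood test (adjusted p under 0.05) and 1 was lower, with a median log2 difference of 2.79, against 0.00 over all 12936 genes tested. The background share of calls was also high, 39.2% of all genes higher and 38.9% lower. DESeq2 called 46 of the 49.

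Among the cyclins and kinases, cdk1, the central mitotic kinase, stood at 37.6 and 22.3 CPM in uninjured marrow, against 2.04 and 2.32 CPM in uninjured brain. Its log2 difference was 3.78 (SE 0.32, n = 2 per tissue, edgeR adjusted p = 1.14e-04). ccnb1, its main B-type cyclin partner, was at 30.6 and 14.1 CPM in marrow and 1.81 and 1.34 CPM in brain. The tissues did not overlap for either gene, although the replicates of marrow themselves differed more than those of brain. plk1, the polo kinase of spindle assembly, and aurkb, the catalytic part of the passenger complex, were higher in marrow by 3.71 and 3.37 on the log2 scale. cdc20, the activator that starts chromosome separation, was higher by 2.89.

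The proliferation antigen mki67, which coats mitotic chromosomes, had 181 and 123 CPM in uninjured marrow, against 12.8 and 11.4 CPM in uninjured brain (log2 difference 3.65, SE 0.22, edgeR adjusted p = 2.68e-05). All 8 genes of condensation and topology were higher in marrow. ncapg, a condensin I subunit, had the smallest p of the 49, at 44.4 and 37.9 CPM in marrow and 2.89 and 3.42 CPM in brain (log2 difference 3.70, SE 0.16, edgeR adjusted p = 7.97e-06). The condensin II subunits ncapd3 and ncaph2 were higher by 2.55 and 2.54, and top2a, the topoisomerase that untangles chromosomes, by 2.79.

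Of the 16 kinetochore and centromere genes, 15 were higher in marrow. cenpe, a kinesin that moves chromosomes to the spindle equator, had 16.7 and 10.4 CPM in marrow, against 0.510 and 0.611 CPM in brain, a log2 difference of 4.58 (SE 0.37, edgeR adjusted p = 9.01e-05). Brain held next to nothing of some: knstrn, a kinetochore and spindle protein, had 0 and 1 reads in the uninjured brain libraries, against 141 and 83 reads in uninjured marrow, and cenpo had 0 and 2 reads in brain and 30 and 17 in marrow. ttk, the kinase that starts the checkpoint, kif11, the motor that pushes the spindle poles apart, and the cytokinesis scaffold anln were higher in marrow by 3.12, 4.23 and 3.63. The chromosome-bound kinesins kif4 and kif22 were higher by 3.19 and 1.75.

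The exceptions were few. ccna1, the A-type cyclin known from the germline in mouse, was the 1 gene lower in marrow, with 0.509 and 0.0567 CPM there, against 2.04 and 2.69 CPM in brain (log2 difference -3.03, SE 0.67, edgeR adjusted p = 0.00728). In reads, marrow had 9 and 1 and brain 36 and 44. The call was lost without uninjured brain replicate 2, where 0 members were lower. The other 3 genes did not pass: ska2, a subunit of the complex that couples kinetochores to microtubules, at 30.9 and 27.1 CPM in marrow and 30.2 and 31.2 CPM in brain, aurkaip1 at 21.7 and 20.8 CPM in marrow and 23.3 and 24.2 CPM in brain, and kif18a, a motor that damps chromosome movement, at 7.01 and 5.44 CPM in marrow and 4.93 and 5.07 CPM in brain. Their log2 differences were -0.08, -0.16 and 0.32. With no scaling beyond library size, an alternative that moved the median of all genes by -0.22, 3 members were lower in marrow.

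**Figure D1:**
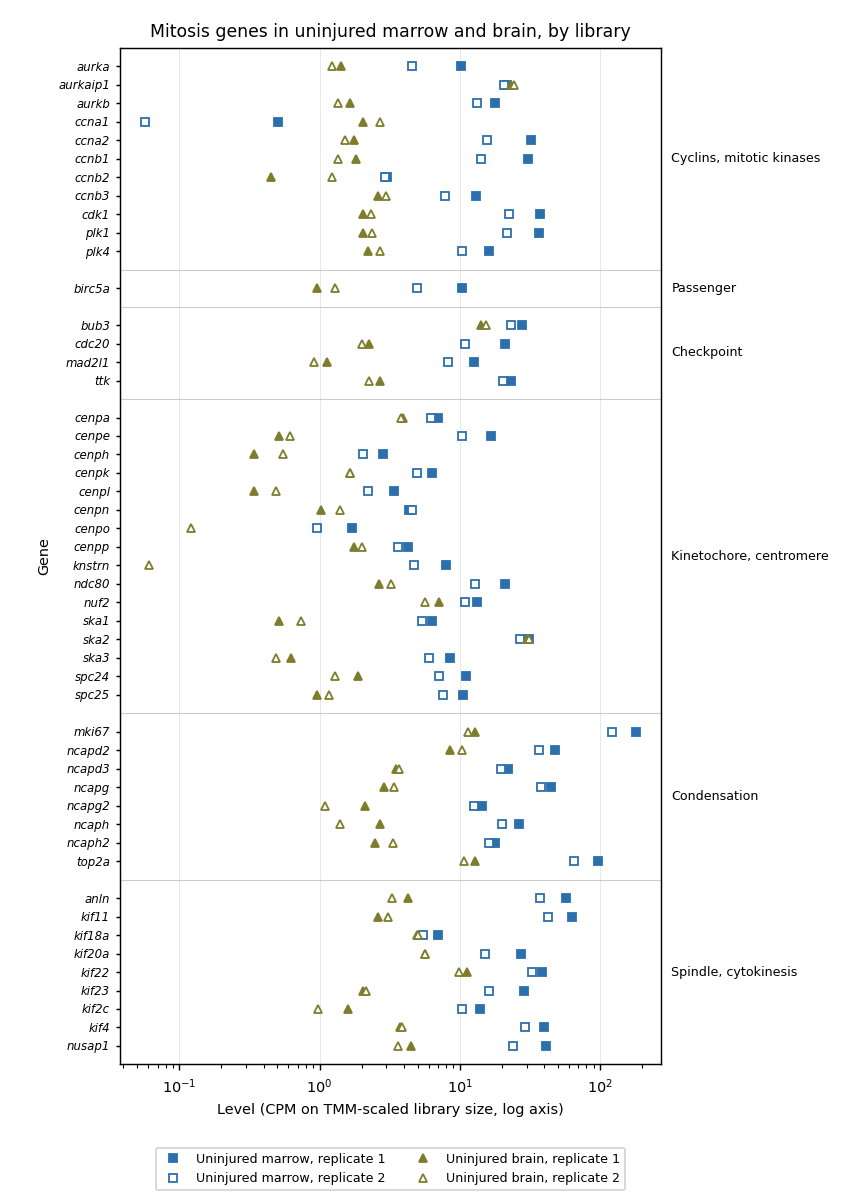
Level of each of the 49 genes (CPM on TMM-scaled library size, log axis) in the 2 uninjured marrow libraries (squares) and the 2 uninjured brain libraries (triangles), grouped by role; filled points are replicate 1. Marrow lies right of brain for most genes, ccna1 lies left, and ska2 coincides at about 30 CPM in both tissues; cenpo and knstrn had 0 reads in brain replicate 1 and have 1 brain point.

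In marrow after cardiomyocyte ablation, every one of the 48 genes tested stood above uninjured marrow in its fitted fold change, by a median of 0.97 on the log2 scale, against -0.01 over all 12160 genes tested. No member passed the adjusted threshold of edgeR in the fit of the 4 marrow libraries, where 0.0% of all genes were called higher. At an unadjusted p under 0.05, 46 of the 48 stood higher, against 12.3% of all genes tested. In 47 of the 48 both ablated libraries were above both uninjured libraries, against 27.7% of all genes. The gene not tested was ccna1, with 1 and 4 reads in ablated marrow, against 9 and 1 reads in uninjured marrow.

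How many members passed depended on the fit. DESeq2 called 32 members higher, against 4.16% of the genes it gave an adjusted p. An edgeR fit over all 8 libraries of the ablation experiment called 34 members higher, against 6.97% of all genes. In that fit brain libraries help estimate the spread, and brain replicates were closer to each other than marrow replicates. The estimated coefficient of variation within groups was 16.5% for the 4 marrow libraries, 5.56% for 4 brain libraries and 12.1% for all 8. The fit of 8 libraries thus assumed a smaller spread for marrow. The calls of DESeq2 and of the fit of 8 libraries shared 31 genes and together covered 35, which left 13 tested genes called by neither. Among the 31 shared genes were cdk1, ccnb1, plk1, aurkb, mki67, top2a, ttk, cenpa and all 6 condensin subunits of the set. Among the 13 without a call were aurka, birc5a, cdc20, nusap1, aurkaip1, ska1 and ska2.

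**Figure D2:**
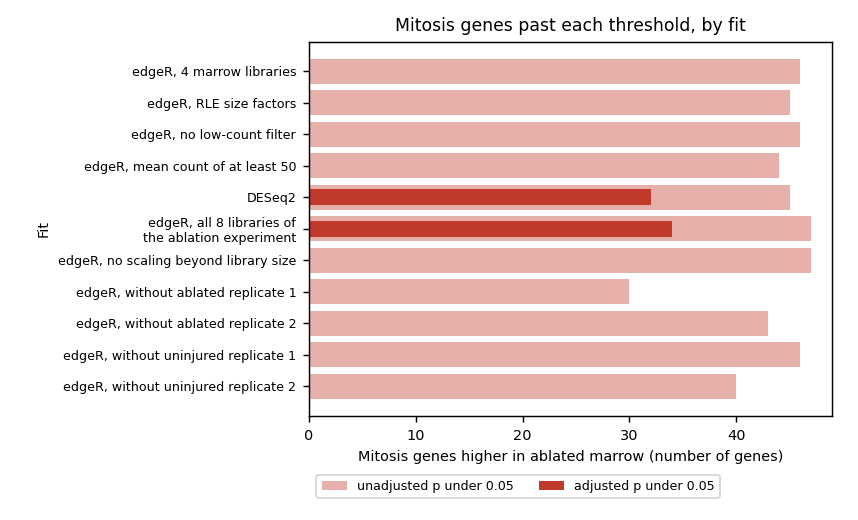
Number of the mitosis genes higher in ablated than in uninjured marrow at an unadjusted p under 0.05 (wide pale bars) and at an adjusted p under 0.05 (narrow dark bars) under each fit without a replicate block. The pale bars run from 30 to 47 genes, while among these fits dark bars appear for DESeq2 (32) and the fit of 8 libraries (34).

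The kinases and cyclins that start mitosis stood higher in ablated marrow, by about 1 on the log2 scale. cdk1 had 71.4 and 55.3 CPM in ablated marrow, against 35.7 and 21.3 CPM in uninjured marrow. This is a log2 fold change of 1.15, with an SE of 0.28 and an edgeR adjusted p of 0.130 (n = 2 each). ccnb1 had 62.0 and 42.0 CPM in ablated marrow and 29.0 and 13.5 CPM in uninjured marrow. The groups did not overlap for either gene, and uninjured replicate 2 was the lowest library for both. ccnb1 had the largest log2 fold change of this role, 1.29 (SE 0.40, edgeR adjusted p = 0.181), with a wide SE. plk1 stood at 62.8 and 47.8 CPM in ablated marrow, against 34.7 and 20.6 CPM in uninjured marrow (log2 fold change 1.0), and aurkb at 34.7 and 27.6 CPM in ablated marrow, against 16.9 and 12.8 CPM in uninjured marrow (1.07). The S-phase and mitotic cyclin ccna2 stood higher by 1.14, the centriole kinase plk4 by 0.92 and aurka, the Aurora kinase of the spindle poles, by 1.1 with an SE of 0.43. aurkaip1 was lowest in this role, at 0.31.

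birc5a, the survivin gene of the passenger complex, had 18.7 and 12.1 CPM in ablated marrow, against 9.93 and 4.76 CPM in uninjured marrow. The groups did not overlap, but uninjured replicate 1 was 2.09 times uninjured replicate 2, and the log2 fold change of 1.06 had an SE of 0.40 (edgeR adjusted p = 0.238). The 4 checkpoint genes showed the same order of libraries. ttk had 39.9 and 33.0 CPM in ablated marrow and 22.0 and 19.4 CPM in uninjured marrow (log2 fold change 0.82, SE 0.15, edgeR adjusted p = 0.0999). cdc20 had 33.3 and 26.5 CPM in ablated marrow and 19.8 and 10.4 CPM in uninjured marrow (0.98, SE 0.32). mad2l1, the checkpoint protein that holds Cdc20 back, stood higher by 1.05, and bub3, which also serves outside the checkpoint, by 0.50.

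Among the 16 kinetochore and centromere genes, cenpa, the histone variant that marks the centromere, had the second smallest p of the 48. Its level was 15.1 and 14.3 CPM in ablated marrow, against 6.66 and 5.95 CPM in uninjured marrow. The replicates of each group were close and the groups far apart, with a log2 fold change of 1.22 (SE 0.15, edgeR adjusted p = 0.0782). The inner kinetochore genes cenpo, cenph, cenpn and cenpk stood higher by 1.42, 1.28, 1.26 and 1.1, and cenpl and cenpp by 0.98 and 0.85. The 4 subunits of the Ndc80 complex, which grips the microtubule, were close to one another: ndc80 0.97, nuf2 0.86, spc24 0.86 and spc25 0.83. The Ska complex, which stabilises that grip, was not uniform. ska3 stood higher by 0.96 and ska1 by 0.74, but ska2 had 30.1 and 27.7 CPM in ablated marrow and 29.4 and 25.9 CPM in uninjured marrow, and its groups overlapped (log2 fold change 0.07, SE 0.13, edgeR adjusted p = 0.805). ska2 also had much the same level in uninjured marrow and brain, as given above. In a newer annotation (GRCz12tu) ska2 overlaps other genes, and without a stated strand setting their reads cannot be told apart.

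The condensation genes held 3 of the 4 smallest p-values. ncapg2, a condensin II subunit, had 28.8 and 27.3 CPM in ablated marrow, against 13.6 and 12.1 CPM in uninjured marrow. Both groups were tight and did not overlap. Its log2 fold change of 1.12 (SE 0.13) had an edgeR adjusted p of 0.0740, the smallest of the 48. The other condensin II subunits ncapd3 and ncaph2 stood higher by 0.92 and 0.88, and the condensin I subunits ncapd2, ncapg and ncaph by 0.99, 0.84 and 1.01. mki67 had 353 and 292 CPM in ablated marrow, against 172 and 117 CPM in uninjured marrow (log2 fold change 1.16, SE 0.21, edgeR adjusted p = 0.0999). top2a had 146 and 129 CPM in ablated marrow and 91.6 and 62.6 CPM in uninjured marrow (0.83, SE 0.20). DESeq2 and the fit of 8 libraries both called each of these 8 genes.

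Of the 9 spindle and cytokinesis genes, kif18a had the smallest p, with 14.2 and 12.5 CPM in ablated marrow and 6.66 and 5.19 CPM in uninjured marrow (log2 fold change 1.17, SE 0.19, edgeR adjusted p = 0.0949). kif4, kif11, kif23 and kif20a stood higher by 0.97, 0.91, 0.95 and 0.91. kif23 and kif20a are motors of the cell midzone, and anln, which organises the cleavage furrow, stood higher by 0.92. The microtubule depolymerase kif2c and the chromokinesin kif22 were at 0.80 and 0.61. nusap1, which bundles spindle microtubules, had 53.3 and 41.0 CPM in ablated marrow and 39.2 and 22.9 CPM in uninjured marrow, a log2 fold change of 0.60 that did not reach an unadjusted p under 0.05. Its groups stayed apart by a narrow margin.

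**Figure D3:**
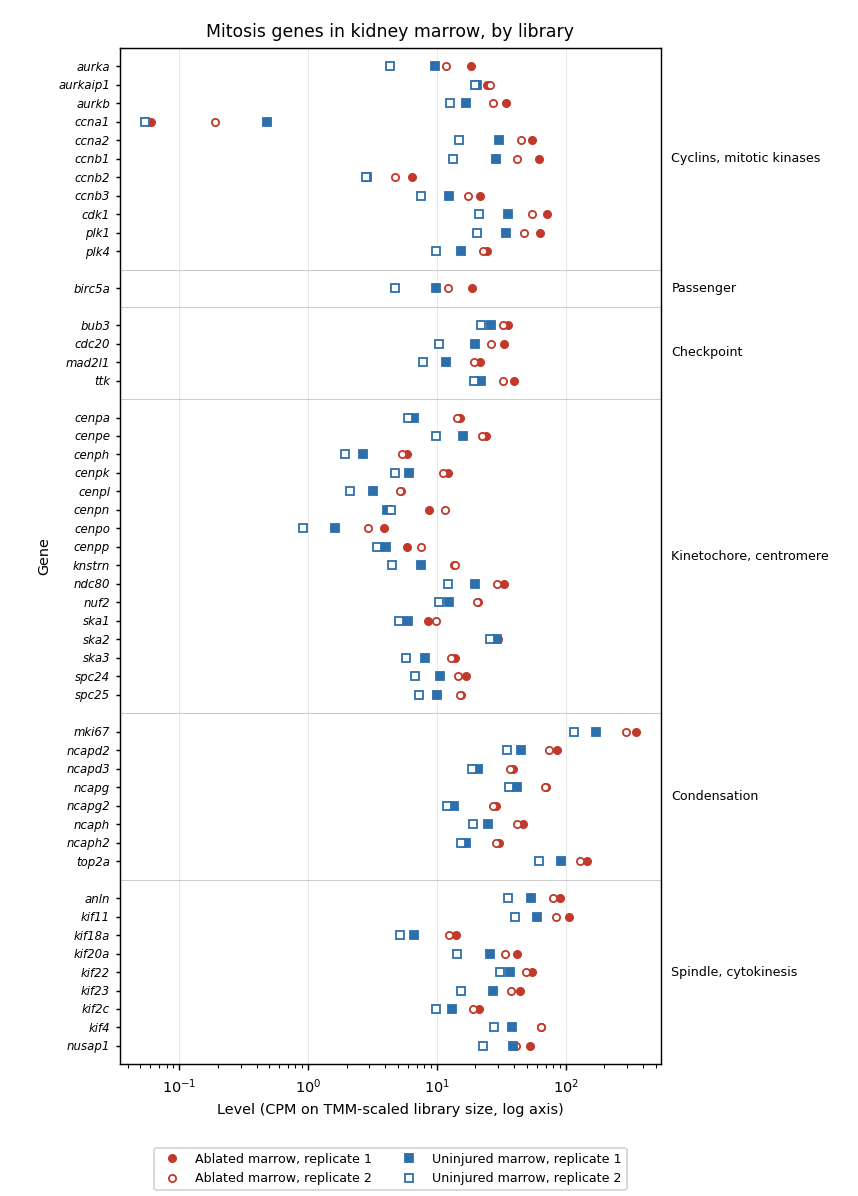
Level of each gene (CPM on TMM-scaled library size, log axis) in the 2 ablated marrow libraries (circles) and the 2 uninjured marrow libraries (squares), grouped by role; filled points are replicate 1. Both circles lie right of both squares in 47 genes, and the open square, uninjured replicate 2, is the leftmost point in 48.

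The marrow libraries were ordered alike across the set. Ablated replicate 1 was the highest library for 43 of the 49 genes and uninjured replicate 2 the lowest for 48. Over the 48 genes tested, the median ratio of uninjured replicate 1 to uninjured replicate 2 was 1.40, against 1.0 over all genes. That ratio was 1.67 in the cyclins and kinases, 2.09 for birc5a and 1.23 in the condensation genes. In ablated marrow the ratio of replicate 1 to replicate 2 was 1.12. Without uninjured replicate 1 the median log2 fold change of the 48 genes was 1.23, and without uninjured replicate 2 it was 0.72. All 48 stayed above 0 in each fit that left out 1 library, except ska2 at -0.02 without uninjured replicate 2. Without ablated replicate 1, 30 had an unadjusted p under 0.05, against 46 with all 4 libraries; over all genes and both directions these fits had 1405 and 2384.

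Other cell cycle genes and some marker lists followed the same order of libraries. Summed, the 49 genes had 2057 and 1772 CPM in ablated marrow, against 1175 and 823 CPM in uninjured marrow. Of 56 other mitosis genes in the files, 52 stood above 0 with a median of 0.86. In edgeR 0 passed, as over all genes. DESeq2 called 434 genes higher and 170 lower of all 10439 with an adjusted p, and it called 23 of these 56. The largest of the named ones were the cohesin protector gene cdca5 (1.39) and the mitotic transcription factor gene mybl2b (1.19), followed by cks1b, a Cdk subunit (0.98), and the condensin core gene smc2 (0.91). All 39 DNA replication genes tested stood above 0, with a median of 0.85, of which 0 passed in edgeR and 22 in DESeq2. Among them lig1, the replicative DNA ligase, had 1.05, rfc2, of the clamp loader, 1.01, and rrm2, which makes deoxynucleotides, 1.17. Erythroid markers, 10 of 12 present in the files and none at 0 reads, summed to 5925 and 4231 CPM in ablated marrow and 4078 and 2788 CPM in uninjured marrow, and uninjured replicate 2 was again the lowest library. The 12 thrombocyte and progenitor markers, of which runx1 was at 0 reads in every marrow library, summed to 857 and 829 CPM in ablated marrow and 641 and 633 CPM in uninjured marrow. Lymphocyte markers, 8 of 14 in the files, had a median log2 fold change of -0.51 and summed to 80.3 and 73.6 CPM in ablated marrow and 91.2 and 81.3 CPM in uninjured marrow. The nephron markers summed to 7821 and 8879.6 CPM in ablated marrow and 10015 and 10902 CPM in uninjured marrow. The 9 neutrophil markers summed to 4850.4 and 5299 CPM in ablated marrow and 5287 and 4932 CPM in uninjured marrow, which overlap. The part of cell composition in the mitosis gene values was not tested.

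**Figure D4:**
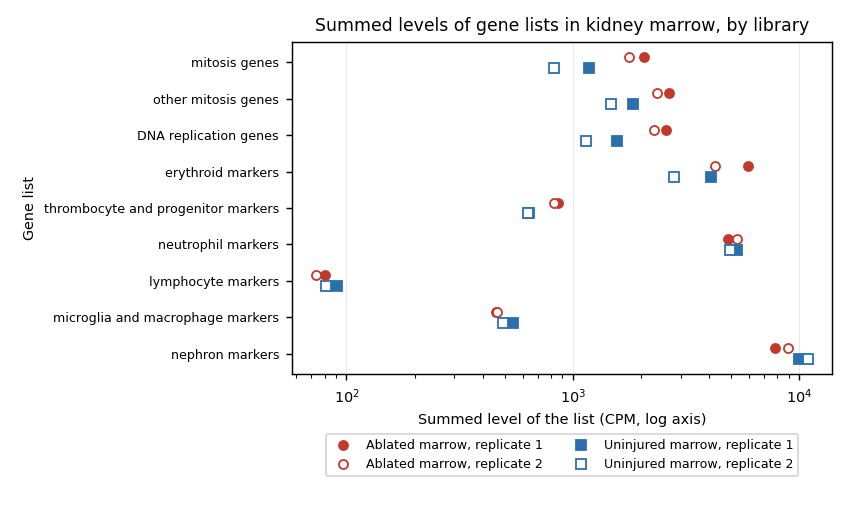
Summed level (CPM, log axis) of the mitosis genes and of other gene lists in each ablated (circles) and uninjured (squares) marrow library; filled points are replicate 1. Mitosis, DNA replication and erythroid sums are higher in both ablated libraries and lowest in uninjured replicate 2, while neutrophil sums overlap and nephron sums are lower in ablated marrow.

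In the brain no mitosis gene passed the test after ablation, and the fold changes lay on both sides of 0. Of 44 genes tested, 0 passed in edgeR, while the background shares of edgeR calls over all genes were 0.283% higher and 0.17% lower. DESeq2 also called 0, but it gave an adjusted p to only 7 members, so the others could not pass there. The median log2 fold change was -0.11, against 0.00 over all genes, with 19 genes above 0 and 25 below. At an unadjusted p under 0.05, 6 genes stood lower, against 3.48% of all genes, and 0 stood higher. The libraries of the groups did not overlap in 15 genes that stood lower, against 18.0% of all genes, and in 5 that stood higher, against 18.1%. The 5 genes not tested (cenpe, cenph, cenpl, cenpo and knstrn) had 0 to 11 reads per library. Without the read filter edgeR tested all 49 and called 0. In that fit 1 member stood higher and 6 lower at an unadjusted p under 0.05, against 935 of all 14029 genes in both directions.

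mki67 had the smallest p in brain, with 10.6 and 9.56 CPM in ablated brain, against 14.1 and 12.6 CPM in uninjured brain. Both ablated libraries were below both uninjured ones. On the log2 scale it stood at -0.41, with an SE of 0.13 and an edgeR adjusted p of 0.394 (n = 2 each). top2a had 10.6 and 9.40 CPM in ablated brain and 14.1 and 11.8 CPM in uninjured brain (-0.38, edgeR adjusted p = 0.568), and kif22 had 8.70 and 9.45 CPM in ablated brain and 12.4 and 10.9 CPM in uninjured brain (-0.36, edgeR adjusted p = 0.597). The other 3 genes with an unadjusted p under 0.05 were cenpk (-0.73), cdc20 (-0.63) and nusap1 (-0.50). cenpk had 1.05 and 1.13 CPM in ablated brain and 1.81 and 1.82 CPM in uninjured brain, and cdc20 had 1.61 and 1.45 CPM in ablated brain and 2.50 and 2.23 CPM in uninjured brain.

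The mitotic kinases were at a few CPM in brain. cdk1 had 1.75 and 2.04 CPM in ablated brain, against 2.25 and 2.56 CPM in uninjured brain, and plk1 had 1.54 and 1.67 CPM in ablated brain, against 2.25 and 2.63 CPM in uninjured brain. Neither overlapped, and neither passed (log2 fold changes -0.33 and -0.60, edgeR adjusted p = 0.888 and 0.744). ccnb1 (-0.41), birc5a (-0.39) and aurkb (0.12) had SEs of 0.33, 0.37 and 0.30. aurkb lay on either side of 0 as libraries were left out, and its groups overlapped. The 5 genes that stood higher without overlap were cenpp, kif18a, kif23, ska2 and ska3, at log2 fold changes of 0.46, 0.13, 0.34, 0.08 and 0.24.

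By role, the median log2 fold change in brain was -0.31 in the 8 condensation genes, -0.22 in the 4 checkpoint genes, -0.11 in the spindle and cytokinesis genes, -0.03 in the 11 kinetochore genes tested and 0.02 in the 11 cyclins and kinases. Summed, the 49 genes had 203 and 211 CPM in ablated brain and 226 and 224 CPM in uninjured brain. Of 52 other mitosis genes tested in brain, 0 passed, with a median of -0.06, and of 37 DNA replication genes 0 passed, with a median of -0.01. Radial glia markers summed to 8419 and 8885 CPM in ablated brain and 8772 and 8328 CPM in uninjured brain, which overlap. Of 10 such markers, 5 stood above 0 and 5 below. Among them cx43 rose (0.26, edgeR adjusted p = 0.0324) and cyp19a1b, the brain aromatase, fell by 0.35 on the log2 scale (edgeR adjusted p = 0.0418). DESeq2 called these and also s100b (-0.22, DESeq2 adjusted p = 0.0120) and fabp7a (-0.23, DESeq2 adjusted p = 0.0458), which edgeR did not call. The part of radial glia in the mitosis gene values was not tested.

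**Figure D5:**
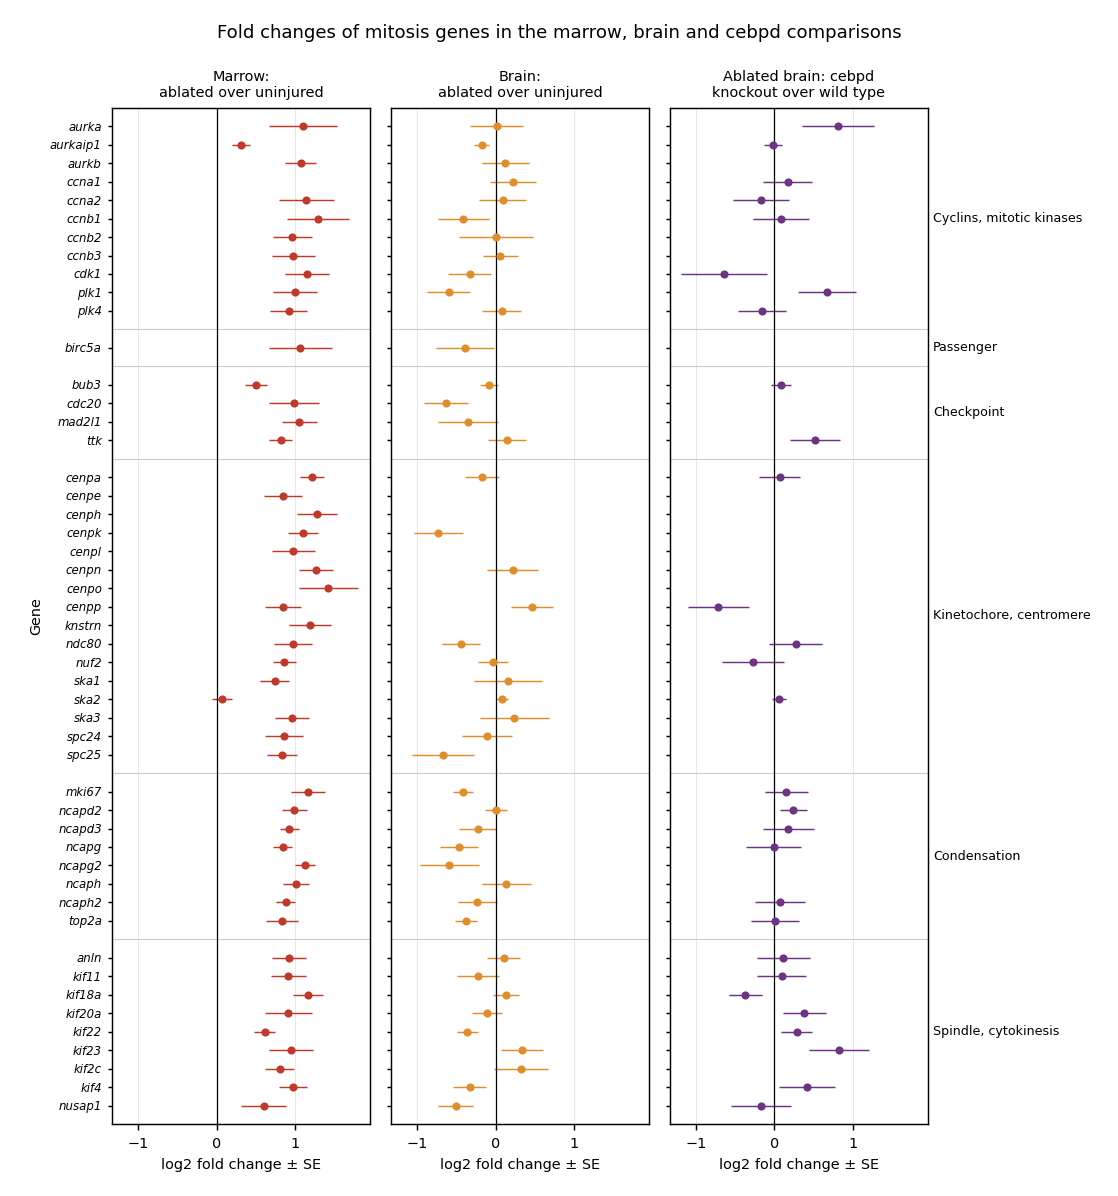
log2 fold change with its SE of each tested gene in ablated over uninjured marrow (left), ablated over uninjured brain (middle) and cebpd knockout over wild type ablated brain (right), grouped by role; genes not tested have no point. All marrow points lie right of 0, with ska2 the nearest to it, while brain and genotype points lie on both sides.

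Whether marrow and brain differed in their response to ablation was tested with an interaction term, marrow minus brain, in a fit of 8 libraries. The difference was above 0 in 46 of 49 genes, with a median of 1.03 on the log2 scale, against -0.02 over all 13077 genes tested. In edgeR 0 members passed, while 0.222% of all genes were called higher. At an unadjusted p under 0.05, 31 members stood higher, against 9.69% of all genes. DESeq2 called 9 members higher, against 1.96% of the genes it gave an adjusted p. They were cdk1, plk1, mki67, top2a, ncapg, ncapd2, ncapd3, kif4 and kif22, and 5 of the 9 are condensation and topology genes. DESeq2 gave an adjusted p to only 23 of the 49 members, so the others could not be called. Those left out include cenpk and cenpa, so the calls do not compare the roles. The size of the difference depended on the uninjured marrow libraries. Its median was 1.19 without uninjured marrow replicate 1 and 0.74 without uninjured marrow replicate 2. Either fit leaves uninjured marrow with 1 library and no spread of its own. The count of calls given next is the largest among the fits that left out 1 library, so it does not stand for them. Without uninjured marrow replicate 1, edgeR called 13 members higher, against 1.5% of all genes, a share that was also above that of the 8 libraries.

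ncapg had the smallest edgeR adjusted p, 0.0547. Its level in this fit was 74.7 and 73.2 CPM in ablated marrow and 44.7 and 38.1 CPM in uninjured marrow. In brain it was 2.25 and 2.50 CPM after ablation and 3.04 and 3.56 CPM in uninjured fish. The direction was opposite in the tissues without overlap in either, and the difference of the log2 fold changes was 1.30 (SE 0.20). cenpk and mki67 followed, with differences of 1.82 (SE 0.31, edgeR adjusted p = 0.0600) and 1.57 (SE 0.28, edgeR adjusted p = 0.0651). For ccnb1 the difference was 1.69 and for aurkb 0.94.

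The cebpd comparison asks what changes in the ablated brain when this transcription factor of the C/EBP family is lost. cebpd itself had 1.30, 3.05 and 0.906 CPM in knockout brains, against 49.4, 78.4 and 41.7 CPM in wild type brains, as the labels say (log2 fold change -4.96, edgeR adjusted p = 1.32e-05). Of the mitosis genes, 29 were tested in edgeR, where 0 passed and 0 had an unadjusted p under 0.05. DESeq2 gave an adjusted p to 46 members and also called 0. Over all genes, edgeR called 0.036% higher and 0.0991% lower. The median log2 fold change was 0.08, against 0.00 over all genes, with 20 genes above 0 and 9 below. Groups did not overlap in 3 genes that stood higher (aurka, kif22 and plk1), against 7.03% of all genes, and in 1 that stood lower (kif18a), against 6.68%. The other 20 genes fell below the read filter of edgeR in these shallower libraries, and the counts without overlap leave them out. Without the filter edgeR tested all 49 and called 0. There 3 members stood higher and 0 lower at an unadjusted p under 0.05, against 1070 of all 13851 genes in both directions.

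kif23, a motor subunit of the centralspindlin complex of cytokinesis, had the smallest p, with 2.04, 3.90 and 4.35 CPM in knockout brains, against 1.42, 1.45 and 2.70 CPM in wild type brains. The groups overlapped, and its log2 fold change, 0.82 with an SE of 0.38, had an edgeR adjusted p of 0.593 (n = 3 each). plk1 had 2.78, 2.71 and 3.44 CPM in knockout brains and 0.949, 1.66 and 2.70 CPM in wild type brains (0.66, SE 0.37, edgeR adjusted p = 0.680). cenpp, an inner kinetochore gene, had 2.04, 1.36 and 1.09 CPM in knockout brains and 1.66, 2.48 and 3.02 CPM in wild type brains (-0.71, SE 0.39). Neither plk1 nor cenpp passed the adjusted threshold. The groups overlapped for cenpp and were apart by a narrow margin for plk1.

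mki67 varied as much within a genotype as between them, with 11.3, 13.2 and 19.4 CPM in knockout brains and 19.9, 8.07 and 12.2 CPM in wild type brains (0.15, SE 0.27). top2a had 6.86, 9.66 and 9.42 CPM in knockout brains and 11.6, 3.93 and 10.3 CPM in wild type brains, a log2 fold change of 0.00 with an SE of 0.30. In wild type brains both genes were lowest in replicate 2. cdk1 had 0.185, 2.2 and 1.81 CPM in knockout brains and 3.32, 1.45 and 2.07 CPM in wild type brains, on 1, 13 and 10 reads in the knockout libraries. ttk, ncapd2 and ccnb1 had log2 fold changes of 0.51, 0.24 and 0.08. Summed, the 49 genes had 234, 239 and 259 CPM in knockout brains and 243, 200.3 and 244 CPM in wild type brains, which overlap.

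Of 32 other mitosis genes tested in the cebpd comparison, 1 passed: the cohesin gene smc1a fell (-1.16, edgeR adjusted p = 0.00321). Between uninjured marrow and brain, smc1a had a log2 difference of -6.73. In that comparison 46 of the 56 genes of this list stood above 0 and 10 below. The passenger complex gene cdca8 had 1.35 (edgeR adjusted p = 0.363). Of 32 DNA replication genes, 0 passed, and mcm4, a helicase subunit, had the smallest p (0.74, edgeR adjusted p = 0.149). Radial glia markers summed to 6351, 6157 and 6519.9 CPM in knockout brains, against 7088, 7477 and 6704 CPM in wild type brains, which do not overlap. The sum itself was not tested. Of 10 such markers, 0 passed in edgeR and 1 in DESeq2, with 3 above 0 and 7 below. Singly, 3 stood lower without overlap, against 6.68% of all genes, and 0 higher. The part of radial glia in the mitosis gene values was not tested. The brain libraries of the cebpd and ablation experiments differ in depth, and no level is compared between them.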

How the data were processed

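RNA was measured in 14 libraries. The authors deposited counts: whole reads per gene symbol for 14781 genes, plus 5 summary lines per library, which were left out. Shares were taken of the gene, no-feature and ambiguous reads of a library together. Reads assigned to no annotated feature made up 37.4% to 58.3% of these and ambiguous reads 0.254% to 1.23%. Per the submitters' processing notes, whose single list covers both assays, the tools include Trim Galore (0.4.1 and 0.6.4), HTSeq 1.6.1 and TopHat2 2.1.1, and the genome build is danRer10. Sources used here name neither annotation nor strand setting, so overlapping genes cannot be told apart: in GRCz12tu, matched by symbol, 20 of the 49 genes overlap another gene, and 8 overlap a gene of the files.

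Each comparison was fitted over all genes in R 4.3.3 with edgeR 4.0.16 (filterByExpr, TMM scaling, glmQLFit, glmQLFTest, Benjamini-Hochberg adjustment, threshold 0.05), with only the compared groups and no replicate block; the tissue difference was an interaction over 8 libraries. The SE was derived from the F statistic. Comparisons that involve uninjured marrow or brain share those libraries. Alternatives were DESeq2 1.42.0, RLE scaling, all genes unfiltered, genes averaging at least 50 reads, a fit of all 8 libraries of the ablation experiment, a replicate block and leaving out each library. A fit with no scaling beyond library size was chosen after seeing the data. The pipeline was tested on simulated data.

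The genes and lists were chosen with earlier results of these data known. Given by value are up to 12 members past the threshold by smallest p, otherwise the smallest p of each role, plus cdk1, ccnb1, mki67, top2a, aurkb, plk1 and cdc20 throughout, and up to 4 genes of other lists. Genes described beyond these, among them ska2, nusap1, ccna1, knstrn and cenpo, were chosen after their values were seen.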

Additional observations from a re-analysis of the deposited data

Results flagged for a closer look

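In 15 of the 43 mitosis genes tested in both tissues, every ablated library was above every uninjured one in marrow and below in brain. These are all 15 genes that stood lower without overlap in brain, where 18.0% of all genes did so. In marrow 47 of the 48 genes tested stood higher without overlap and 0 lower, so the reverse could not occur. Over all 11444 genes tested in both tissues, 552 (4.82%) showed the pattern of the 15 and 428 the reverse. The interaction (marrow minus brain, on the log2 scale) was tested for each of the 15, on the same 8 libraries that picked them. The edgeR adjusted p ran from 0.0547 to 0.333, so none passed in that fit. The differences were 1.82 for cenpk, 1.61 for cdc20, 1.59 for plk1, 1.57 for mki67, 1.49 for spc25, 1.47 for cdk1 and 1.45 for birc5a. They were 1.40 for ndc80, 1.30 for ncapg, 1.29 for kif4, 1.20 for top2a, 1.1 for nusap1 and 0.97 for kif22. The smallest were 0.58 for bub3 and 0.49 for aurkaip1. DESeq2 called cdk1, kif22, kif4, mki67, ncapg, plk1 and top2a among these. It gave no adjusted p for cenpk, cdc20, spc25 and birc5a, which therefore could not be called. With 2 or 3 libraries per group, single outlying libraries were not tested for.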

How the results depend on the processing

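The members higher in ablated marrow numbered 0 in the reported edgeR fit and 0 with RLE, no scaling, no filter, a mean of 50 reads or more, or any 1 library left out, but 32 with DESeq2, 34 with all 8 libraries and 27 with the replicate block on the same 4 libraries, which called 433 of all 12160 genes higher. Their median log2 fold change ran from 0.72 to 1.23 as libraries were left out. In brain the median was -0.14 with a mean of 50 reads or more, -0.046 with no scaling and -0.174 to -0.0802 with 1 library left out, and aurkb ran from -0.0096 to 0.28. In the cebpd comparison, the median ran from -0.0095 without wild type replicate 2 to 0.166 without knockout replicate 1. Leaving out 1 library there gave -0.052 to 0.28 for ccnb1, -0.11 to 0.50 for mki67 and -0.33 to 0.23 for top2a. Members lower in uninjured marrow than brain numbered 1 in the reported fit, 0 with a mean of 50 reads or more, 3 with no scaling and 0 to 1 with 1 library left out, and the median ran from 2.46 to 3.15. For the tissue difference, the replicate block called 3 members, DESeq2 9 and no scaling 2, against 0 in the reported fit; with 1 library left out the calls ran from 0 to 13 and the median from 0.74 to 1.19. Where a group kept 1 library, that library was assumed to vary like the others. The cause of these shifts was not tested. The labels do not say what libraries with the same replicate number share. Correlations of their deviations ran from -0.059 to 0.154, which with so few libraries does not settle whether they pair. The replicate block moved no other count of member calls. Its medians were 0.99 in marrow, -0.10 in brain, 0.10 for cebpd and 2.77 between uninjured tissues. Depth limits brain most, where the median member had 34 to 45 reads per library, and 8 to 16 in the cebpd libraries.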
